A study of Mus musculus with 24 samples.

Results

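The genes described here are 46 mouse interferon-stimulated genes, listed by symbol and found among the 39056 genes of a count table of sorted ileal cells. Each of the 46 symbols matched 1 gene of the table, and each gene was measured in all 24 libraries. By role, the list holds the ubiquitin-like modifier Isg15 and its protease Usp18, 3 RNA sensors, 4 transcription factors, 10 genes of the IFIT and 2-5A synthetase families, 10 other antiviral effectors, the TRIM and PARP genes Trim30a, Parp9 and Parp14, 7 guanylate-binding proteins (GBPs), 4 immunity-related GTPases (IRGs), and the antigen processing genes Tap1, Psmb8 and Psmb9.

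RNA was sequenced from live CD45+ cells, which are hematopoietic, and from live CD45- cells, which hold the remaining epithelial, endothelial and stromal cells of the ileum, with 3 libraries for each of 8 groups. Mice were Hoil1+/+ or Hoil1-/-, and all of them carried floxed Il4ra alleles, either alone (Il4ra f/f) or with Vil1cre, a Villin-driven Cre that removes the IL-4 receptor alpha chain from intestinal epithelial cells (Il4ra ΔIEC). The mice were C57BL/6 animals of both sexes, 9 to 10.3 weeks old, and controls were co-housed littermates. Hoil1-/- mice carry the Rbck1tm1Kiwa allele, which leaves a low amount of a truncated HOIL1 and is a model of partial deficiency. Peyer's patches had been taken out, part of the epithelial fraction was mixed with the lamina propria cells before sorting, and the labels do not tie a CD45+ library to a CD45- library of the same mouse. The comparisons asked which genes depended on HOIL1, on epithelial IL-4 receptor alpha, or on both together, in each of the fractions.

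Interferons are secreted alarm proteins. Type I and type III interferons lead to assembly of the factor ISGF3, which contains STAT2 and IRF9 and binds the interferon-stimulated response element (ISRE), whereas interferon-gamma acts through the gamma-activated site (GAS). In the gut, type III interferon is known to act mainly on epithelial cells, and type I interferon and interferon-gamma act on many cell types. HOIL1, the product of Rbck1, is a subunit of the linear ubiquitin chain assembly complex (LUBAC), which acts in signalling to NF-kappaB and downstream of RNA sensors.

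Promoters of the members show the sequences that these factors are known to bind. RefSeq promoter entries (GRCm38.p6, 250 bases before to 50 after a gene's start) existed for 34 of the 46 members. The ISRE core was searched as GAAA, any 2 bases and GAAA, and the GAS core as TTCNNNGAA, on both strands, so that an ISRE on the opposite strand reads TTTC, any 2 bases and TTTC. An ISRE core was present in 20 of the 34 members (58.8%) and in 3.44% of all 32851 promoters, or 3.99% of 27025 genes. A GAS core was present in 10 of the 34 members (29.4%) and in 8.3% of all promoters, or 9.55% of genes. A match is a description of letters and not of a bound site, and the cores can overlap each other. The windows below were chosen after the search, as examples from Isg15, Irf1 and the families in which several members held a core, and windows of other members with a core, such as Bst2, are not shown. Each is written 5′ to 3′ on the strand of its gene, with the matched cores in capitals and 10 flanking bases, or fewer where the gene's start came sooner, in lower case. The first set holds ISRE cores of the antiviral genes Isg15, Ifit1, Ifit3, Ifit3b, Oas1a and Oas1g, of which Ifit3 and Ifit3b were identical over 64 bases.
Isg15 (chr4:156200865-156200906, minus strand): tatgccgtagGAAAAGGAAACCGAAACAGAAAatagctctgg
Ifit1 (chr19:34640775-34640823, plus strand): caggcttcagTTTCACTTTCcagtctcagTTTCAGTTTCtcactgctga
Ifit3 (chr19:34583363-34583426, plus strand): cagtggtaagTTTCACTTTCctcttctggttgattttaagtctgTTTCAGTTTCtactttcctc
Ifit3b (chr19:34607759-34607822, plus strand): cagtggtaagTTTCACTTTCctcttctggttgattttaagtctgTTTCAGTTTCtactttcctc
Oas1a (chr5:120907526-120907633, minus strand): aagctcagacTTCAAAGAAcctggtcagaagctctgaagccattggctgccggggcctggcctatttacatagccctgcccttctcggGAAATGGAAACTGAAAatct
Oas1g (chr5:120887614-120887641, minus strand): cccttctcggGAAATGGAAACTGAAAat
In Isg15 the capitals are 3 overlapping ISRE cores, and in Oas1a they are a GAS core followed by 2 overlapping ISRE cores next to the gene's start, a pair of ISRE cores that Oas1g shared.

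The second set comes from the GTPase families and from Irf1, the transcription factor gene best known as an interferon-gamma target. In this set Gbp7, Igtp and Irgm2 held ISRE and GAS cores together, and Gbp2 and Gbp3 held ISRE cores alone.
Gbp2 (chr3:142620594-142620623, plus strand): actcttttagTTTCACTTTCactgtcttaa
Gbp3 (chr3:142559989-142560024, plus strand): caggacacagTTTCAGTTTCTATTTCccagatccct
Gbp7 (chr3:142530220-142530302, plus strand): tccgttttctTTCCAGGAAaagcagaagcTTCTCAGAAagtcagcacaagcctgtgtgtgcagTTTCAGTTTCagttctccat
Igtp (chr11:58199501-58199541, plus strand): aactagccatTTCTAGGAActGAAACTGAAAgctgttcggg
Irgm2 (chr11:58214892-58214932, plus strand): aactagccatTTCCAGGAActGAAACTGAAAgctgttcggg
Irf1 (chr11:53769914-53769942, plus strand): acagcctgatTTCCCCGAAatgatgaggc
Igtp and Irgm2 carried a GAS core and an ISRE core 2 bases apart in otherwise matching windows, whereas in Irf1 the window held a GAS core alone. Tap1 and Psmb9 lie head to head on chromosome 17 with starts 226 bases apart, and their promoter entries shared 275 bases. Other members also lie side by side: Ifit1, Ifit2, Ifit3 and Ifit3b within 99.3 kb of chromosome 19, Gbp2, Gbp3, Gbp5 and Gbp7 within 144 kb of chromosome 3, and Oas1a, Oas1g, Oas2 and Oas3 within 177 kb of chromosome 5.

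Libraries held 14938629 to 76807504 counts in CD45+ cells and 6028275 to 68345191 in CD45- cells. Levels are CPM, a gene's counts scaled to a common library size after TMM scaling over all 24 libraries. A floor of 3 counts stood for 0.0381 to 0.186 CPM in CD45+ cells and 0.0365 to 0.41 CPM in CD45- cells. Rbck1 measured 5.37 to 15.9 CPM in CD45+ Hoil1-/- libraries against 90.7 to 159 in Hoil1+/+ libraries, and 0 to 7.31 against 72.9 to 110 CPM in CD45- libraries. Ptprc, which encodes CD45, measured 250 to 757 CPM in CD45+ and 0 to 16.2 CPM in CD45- libraries. The study left out 3 libraries that stood apart in its principal component analysis, namely replicate 1 of CD45+ Hoil1-/- f/f, replicate 3 of CD45+ Hoil1-/- ΔIEC and replicate 3 of CD45- Hoil1-/- f/f. Those 3 are absent from the tests below, which used 10 CD45+ and 11 CD45- libraries, but their levels are given, always as the first Hoil1-/- f/f and the last Hoil1-/- ΔIEC value in CD45+ cells and the last Hoil1-/- f/f value in CD45- cells. Levels are for a mixed population, in which fewer cells of a type and less RNA per cell cannot be told apart.

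The labels give the age of each mouse, and ages were not evenly spread over the genotypes. Of the tested CD45+ libraries, 3 of 6 Hoil1+/+ libraries came from mice of 9 or 9.1 weeks (replicates 1 and 3 of f/f and replicate 3 of ΔIEC), whereas all 4 Hoil1-/- libraries came from mice of 9.4 to 9.9 weeks. Both left-out CD45+ libraries came from the younger mice. Of the tested CD45- libraries, 3 of 6 Hoil1+/+ libraries and 1 of 5 Hoil1-/- libraries came from the younger mice. Marker sums differed between these ages in Hoil1+/+ mice. In CD45+ cells the sum of 9 T cell markers was 539 to 786 CPM in the 3 younger and 2712 to 3376 CPM in the 3 older Hoil1+/+ libraries, and 928 to 1470 CPM in the tested Hoil1-/- libraries. In CD45- cells the sum of 12 endothelial markers was 8322 to 15351 CPM in the 3 younger and 4060.1 to 4748 CPM in the 3 older Hoil1+/+ libraries. Age and anything else that the younger mice shared cannot be told apart. Comparisons were therefore also made with the age group as a term, and in mice of 9.4 weeks and over alone (3 Hoil1+/+ and 4 Hoil1-/- libraries in each fraction), alternatives chosen after seeing the data.

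All 46 members were expressed in CD45+ cells, and all 46 in CD45- cells, at levels that spanned more than 100-fold per kilobase of exon. In CD45+ cells Bst2, which tethers budding virus to the cell, was highest at a median of 151 CPM per kb (63.6 to 281, 12 libraries), followed by the immunoproteasome subunit Psmb8 at 83.5 (51.2 to 139) and Irf1 at 80.7 (44.9 to 151). The ranges of these 3 genes overlapped, so that their order was not larger than the spread between libraries. Isg15, whose product is conjugated to proteins like ubiquitin, was next at 45.5 CPM per kb, and Gbp6 was lowest at 0.737. In CD45- cells Bst2 was again highest at 84 CPM per kb (17.3 to 151), then Irf1 at 61 (26.8 to 242), Isg15 at 34.9 (15.2 to 128) and Psmb8 at 34.2, again with overlapping ranges. Mx1, which belongs to the dynamin-like GTPases, was lowest at 0.164 CPM per kb and had no count in 3 of 12 CD45- libraries. The other members without a count in some library were Mx2 (1 CD45+ and 2 CD45- libraries), Ifit3b and Oas1g (2 CD45- libraries each) and Usp18, Dhx58, Gbp6, Oas3 and Gbp8 (1 CD45- library each). Transcripts of 24 members shared no 75-base stretch with another gene, whereas Gbp6 shared 67.3%, Oas1a 47.6% with Oas1g, and Ifit3 41.1% with Ifit3b, so that values of these genes are uncertain where reads could not be split.

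**Figure D1:**
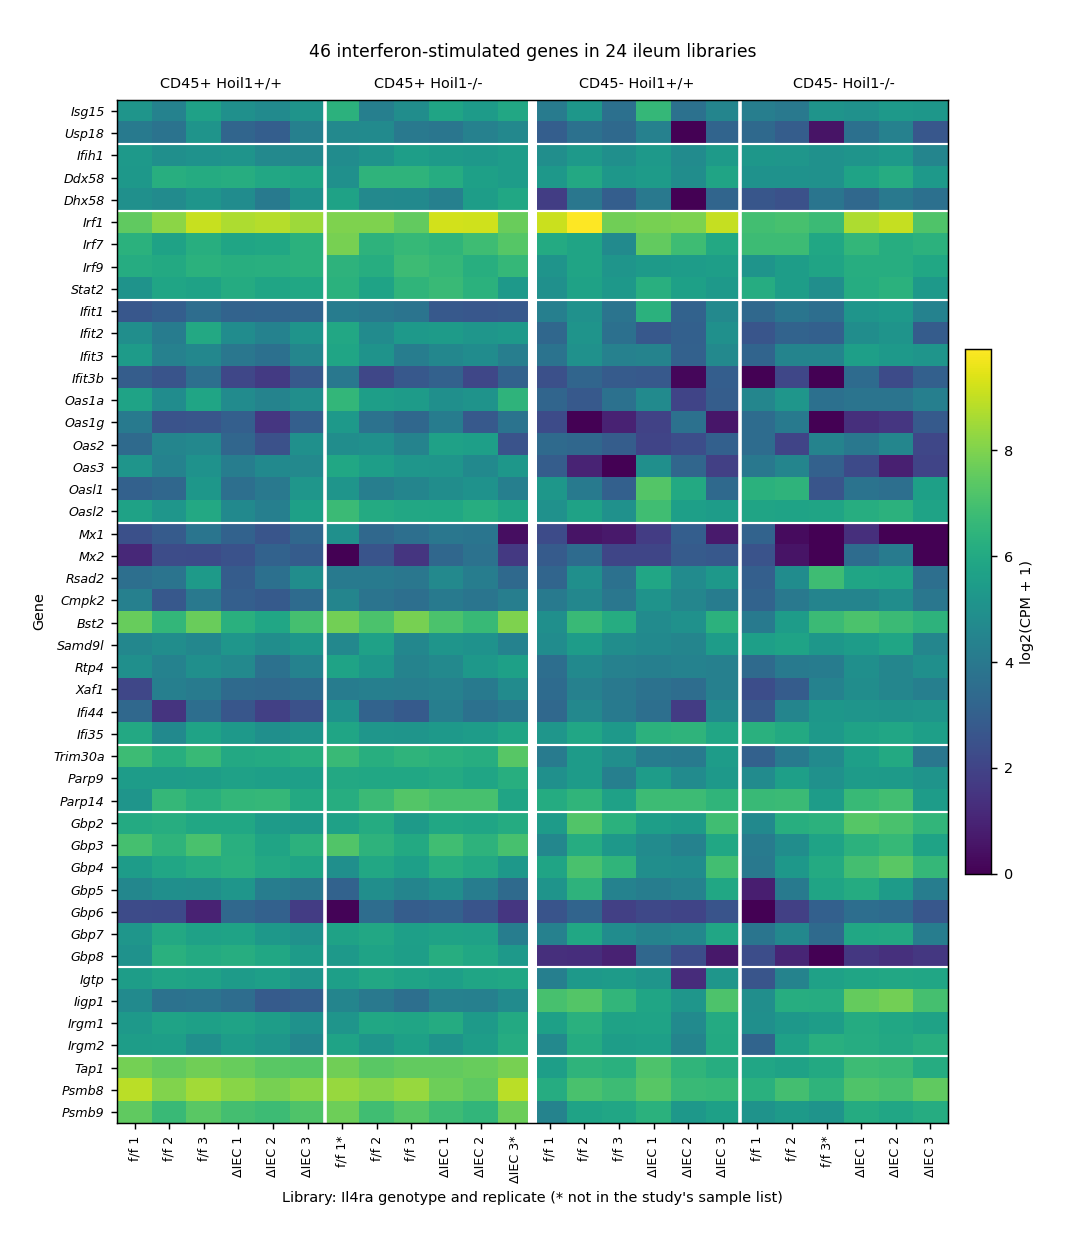
Level of each of the 46 members (rows, ordered by role, with lines between the roles) in each of the 24 libraries (columns, ordered by fraction and genotype), as colour on a log2(CPM + 1) scale. Gbp8 and the antigen processing genes are brighter across the CD45+ libraries, Iigp1 is brighter across the CD45- libraries, and libraries of 1 group differ from each other for many members. Stars mark the 3 libraries that the study left out.

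The fractions differed in 21 of the 46 members, by the quasi-likelihood test of edgeR on 21 libraries with all genotypes averaged, and 49.6% of the 18778 genes tested passed the same threshold. Of these members 16 were higher in CD45+ cells (24.5% of all genes were) and 5 were lower (25.1% of all genes), and the median log2 fold change was 0.29 over the members and 0.027 over all genes. Gbp8, a guanylate-binding protein, had the largest difference at a log2 fold change of 4.66 ± 0.42 (SE), with 31.9 to 76.6 CPM (median 55.8) in CD45+ and 0 to 8.84 CPM (median 1.53) in CD45- libraries (adjusted p = 1.9e-07). Mx1 was higher by 2.36 ± 0.76 (SE), with 0.301 to 30.4 CPM (median 9.01) in CD45+ and 0 to 7.93 CPM (median 0.621) in CD45- libraries (adjusted p = 0.0155). Oas3, which makes 2-5A to activate RNase L, was higher by 2.27 ± 0.59 (SE), with 17.4 to 59.5 CPM (median 33.3) in CD45+ and 0 to 29.3 CPM (median 5.05) in CD45- libraries (adjusted p = 0.00403). The libraries of the fractions did not overlap for Gbp8, whereas those of Mx1 and Oas3 overlapped. With the age group as a term neither passed (adjusted p = 0.117 for Mx1 and 0.0513 for Oas3, edgeR), and 15 members were higher and 6 lower. Each antigen processing gene was also higher in CD45+ cells, with log2 fold changes of 1.36 for Psmb9, 1.26 for Tap1, which carries peptides into the endoplasmic reticulum, and 1.22 for Psmb8. The RNA sensor genes Dhx58 and Ddx58 (1.85 and 0.62), Irf9 (0.78), Trim30a (1.67), Parp9 (0.56), Oas1a, Oas2 and Ifit2 (1.28, 1.62 and 1.24), Bst2 (1.23) and Gbp3 (1.13) made up the rest.

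Iigp1, an IRG that attacks the vacuoles of intracellular parasites, was the member with the largest difference towards CD45- cells, at a log2 fold change of -2.83 ± 0.27 (SE). It measured 28.5 to 222 CPM (median 109) in CD45- and 6.14 to 26.8 CPM (median 14) in CD45+ libraries, with no overlap (adjusted p = 3.7e-07). Ifit1, which binds foreign RNA ends, differed by -1.47 ± 0.32 (SE) on the log2 scale, with 5.4 to 17 CPM (median 8.03) in CD45+ and 7.63 to 78.5 CPM (median 19.3) in CD45- libraries (adjusted p = 0.00117). Ifi44 differed by -1.25 ± 0.40 (SE), with 1.79 to 32.4 CPM (median 8.56) in CD45+ and 2.42 to 37 CPM (median 22.8) in CD45- libraries, which overlapped (adjusted p = 0.0143), and it did not pass without replicate 2 of CD45- Hoil1-/- f/f (adjusted p = 0.0713). Cmpk2 and Ifi35 differed by -0.63 and -0.60. The IFIT family was split, with Ifit2 higher and Ifit1 lower in CD45+ cells, and Ifit3 and Ifit3b, at 0.093 and 0.28, did not pass. Of the GBPs, Gbp8 and Gbp3 were higher in CD45+ cells and none was lower, and Gbp2, Gbp4, Gbp5, Gbp6 and Gbp7, between -0.49 and 0.60, did not pass.

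**Figure D2:**
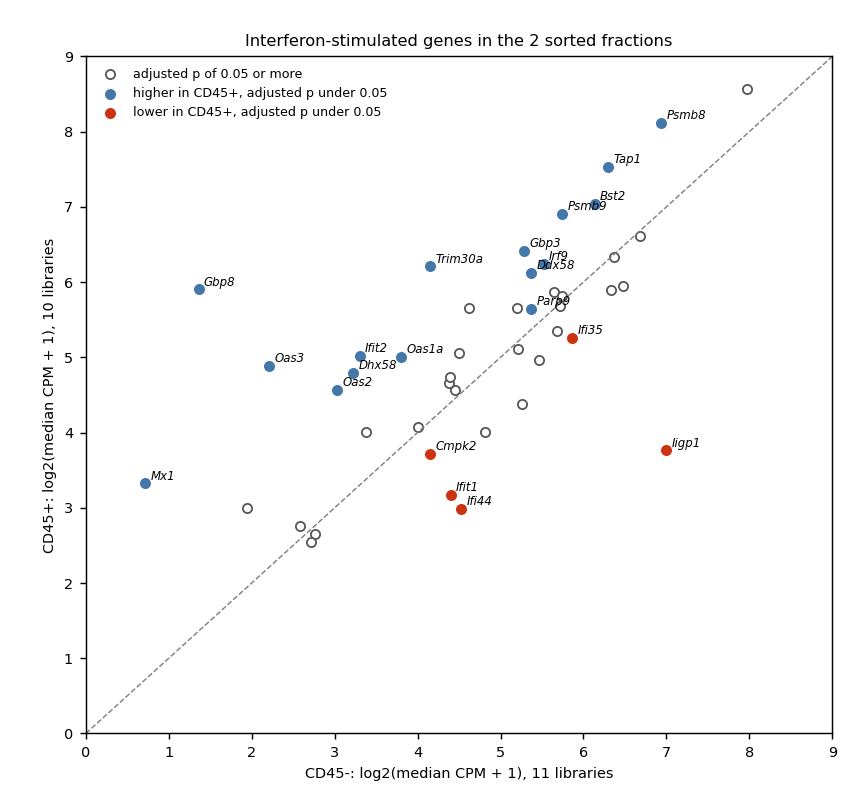
Median level of each of the 46 members in the 10 tested CD45+ libraries (vertical axis) against the 11 tested CD45- libraries (horizontal axis), both as log2(median CPM + 1), with a dashed line where the levels are equal. The 16 blue points, with Gbp8 farthest from the line, were higher in CD45+ cells, the 5 red points, with Iigp1 farthest, were lower, and open points did not pass an adjusted p of 0.05.

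No member passed the test for an effect of Hoil1 in CD45+ cells (edgeR quasi-likelihood test, 6 Hoil1+/+ against 4 Hoil1-/- libraries, effect averaged over the Il4ra genotypes, smallest adjusted p = 0.783). Rbck1 itself was the 1 gene called among 17029 (0.00587%). The study's own edgeR tests also called other genes for Hoil1 in CD45+ cells, among them Nmur1, Klrg1, Il5, Il17rb and Epas1. The fit used here thus called fewer genes than the study did. At an unadjusted p under 0.05, 6 members were higher in Hoil1-/- cells and 0 were lower, where 3.11% of all genes were higher and 2.74% lower. The likelihood ratio test (LRT) of edgeR and the test of DESeq2 also called 0 members, and 103 and 126 of 17029 genes. The log2 fold change was above 0 for 33 members and below 0 for 13, with a median of 0.23 against -0.049 over all genes.

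Parp9, an ADP-ribosyltransferase family member, had the smallest unadjusted p (0.0154). It measured 43.3, 43.7 and 45 CPM (f/f) and 50.6, 47.5 and 47.1 CPM (ΔIEC) in Hoil1+/+ mice. Parp9 in Hoil1-/- mice measured 63, 59.5 and 58.7 CPM (f/f) and 65.4, 56.2 and 73 CPM (ΔIEC). The lowest Hoil1-/- library, left-out libraries included, lay above the highest Hoil1+/+ library, and the log2 fold change was 0.36 ± 0.12 (SE) with a 95% interval of 0.086 to 0.64 (edgeR, adjusted p = 0.783). Irf7, the factor that amplifies type I interferon production, measured 80.3, 50.9 and 72.5 CPM (f/f) and 55.4, 58.8 and 78.4 CPM (ΔIEC) in Hoil1+/+ mice. Irf7 in Hoil1-/- mice measured 234, 83.7 and 98.9 CPM (f/f) and 88.4, 114 and 158 CPM (ΔIEC). Its groups did not overlap either, the left-out libraries had the highest values, and the log2 fold change was 0.53 ± 0.18 (SE) (adjusted p = 0.783, edgeR). Stat2, a subunit of ISGF3, measured 32.9, 56.5 and 50.8 CPM (f/f) and 67.1, 55.6 and 58.8 CPM (ΔIEC) in Hoil1+/+ mice. Stat2 in Hoil1-/- mice measured 78.9, 53.1 and 88.5 CPM (f/f) and 105, 79.3 and 38.5 CPM (ΔIEC). Of the tested libraries, only replicate 2 of Hoil1-/- f/f fell within the Hoil1+/+ range, and so did the left-out ΔIEC library, with a log2 fold change of 0.59 ± 0.21 (SE) (adjusted p = 0.783, edgeR).

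Parp14, a mono-ADP-ribosyltransferase next to Parp9 on chromosome 16, measured 35, 97 and 74.3 CPM (f/f) and 93.4, 97.2 and 63.5 CPM (ΔIEC) in Hoil1+/+ mice. Parp14 in Hoil1-/- mice measured 71, 108 and 151 CPM (f/f) and 131, 129 and 54.2 CPM (ΔIEC). The 4 tested Hoil1-/- libraries were above every Hoil1+/+ library, but both left-out libraries were inside the Hoil1+/+ range, with a log2 fold change of 0.75 ± 0.27 (SE) (adjusted p = 0.783, edgeR). Oasl2, a 2-5A synthetase-like gene, measured 51.5, 36.1 and 61.8 CPM (f/f) and 25, 18.3 and 48.9 CPM (ΔIEC) in Hoil1+/+ mice. Oasl2 in Hoil1-/- mice measured 107, 64.9 and 61.2 CPM (f/f) and 58.6, 70.7 and 54.1 CPM (ΔIEC). Its groups overlapped at the highest Hoil1+/+ library, and the log2 fold change was 0.70 ± 0.27 (SE) (adjusted p = 0.783, edgeR). Oas2 was the sixth member with an unadjusted p under 0.05, at 1.09 ± 0.47 (SE), and its left-out ΔIEC library was near the bottom of the Hoil1+/+ range at 4.73 CPM. In all, 3 members (Irf7, Parp9 and Parp14) had every tested Hoil1-/- library above every Hoil1+/+ library, as did 0.711% of all genes, and 0 members had every one below, as did 0.329% of genes. With all 12 libraries, Irf7 and Parp9 still did not overlap, 9 members were higher and 0 lower at an unadjusted p under 0.05, as were 2% and 2.14% of genes, the median was 0.37 against -0.018, and 0 members passed (edgeR). Without overlap in those 12 libraries, 0.156% of all genes were above in Hoil1-/- cells.

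With age taken into account, more members were higher in CD45+ Hoil1-/- cells at an unadjusted p, and 0 passed the test. With the age group as a term, 10 members were higher and 0 lower at an unadjusted p under 0.05, against 2.82% and 4.1% of genes, and the median was 0.34 against -0.037 (edgeR, smallest adjusted p = 0.0709, 28 of 17029 genes called). With that term and all 12 libraries, which added the younger Hoil1-/- mice, 13 members were higher and 1 lower, against 3.04% and 4.27% of genes. The median there was 0.34 against -0.064 (edgeR, smallest adjusted p = 0.103, 4 of 16060 genes called). In mice of 9.4 weeks and over, 15 members were higher and 0 lower, against 4.04% and 4.59% of genes, and the median was 0.39 (edgeR, smallest adjusted p = 0.0509). In these mice 12 members had all 4 Hoil1-/- libraries above all 3 Hoil1+/+ libraries, as did 3% of genes, and 0 had all below, as did 5.22%. The 12 were Usp18, Irf7, Oas1a, Oasl1, Oasl2, Mx1, Rsad2, Cmpk2, Bst2, Ifi44, Parp9 and Parp14. All 4 tested Hoil1-/- libraries came from the older mice, so the age term in the tested libraries rested on Hoil1+/+ libraries alone. Values with that term and values in the older mice are therefore not separate checks. Oasl2, with the smallest p with the age term, was at 1.21 ± 0.20 (SE) there and 1.18 ± 0.19 (SE) in the older mice. Irf7 was at 0.80 ± 0.17 (SE) and 0.82 ± 0.18 (SE), and Parp9 at 0.34 ± 0.15 (SE) and 0.36 ± 0.16 (SE). Parp14 was lower than without age, at 0.43 ± 0.26 (SE) and 0.42 ± 0.18 (SE). The T cell marker sum differed between the same older libraries, as given above, and its part in these values was not tested.

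**Figure D3:**
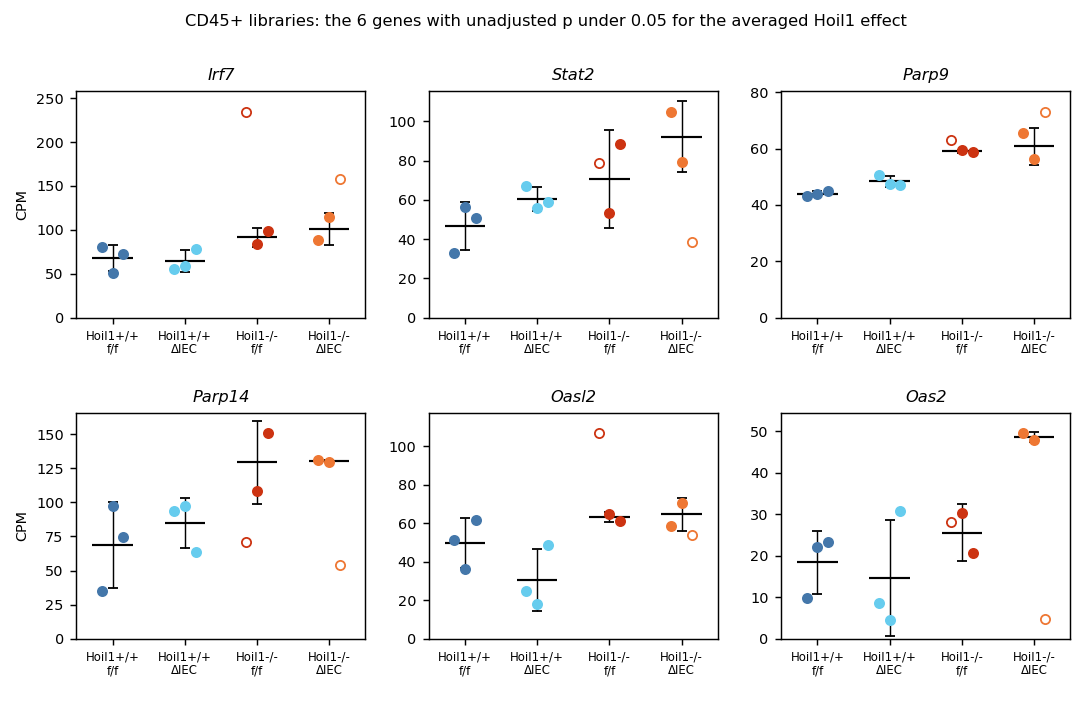
CPM of Irf7, Stat2, Parp9, Parp14, Oasl2 and Oas2 in each CD45+ library by genotype, with lines at the mean and 1 SD of the tested libraries (2 or 3 in a group) and open points for the libraries that the study left out. For Parp9 and Irf7 every Hoil1-/- point lies above every Hoil1+/+ point, and for Stat2, Parp14 and Oas2 the left-out ΔIEC library is below the tested Hoil1-/- libraries.

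By role, the largest medians of the averaged Hoil1 effect in CD45+ cells belonged to the other antiviral effectors (0.40, 8 of 10 above 0, none with an unadjusted p under 0.05) and the transcription factors (0.38, 3 of 4 above 0, 2 with such a p). The IFIT and 2-5A synthetase families had 9 of 10 above 0 at a median of 0.29, and the RNA sensors had 3 of 3 and the IRGs 4 of 4 above 0 at medians of 0.21 and 0.25. Of the GBPs 2 were above and 5 below 0, with a median of -0.017 and a range of -0.062 to 0.77. Each of the 3 antigen processing genes was below 0 (-0.39 to -0.070). Isg15 was at 0.025 and Usp18, which removes ISG15 and dampens type I interferon receptor signalling, at 0.26.

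The Hoil1 effect was also taken within each Il4ra genotype in CD45+ cells, where 0 members and 0 of all 17029 genes passed (edgeR, smallest adjusted p over the members 0.836 in f/f and 0.706 in ΔIEC, with 0% of genes called in each). LRT and DESeq2 called 0 members. Over all genes, LRT called 66 in f/f and 51 in ΔIEC mice, and DESeq2 called 93 and 159. In f/f mice 24 members were above and 22 below 0 (median 0.083 against 0 over all genes), and the unadjusted p was under 0.05 for 3 higher members and 1 lower member, against 2.91% and 2.37% of all genes. In ΔIEC mice 40 were above and 6 below 0 (median 0.44 against -0.062), with 5 higher and 0 lower members at that p, against 3.04% of genes in each direction. The difference of these effects, the Hoil1 by Il4ra interaction, passed in 0 members and 0% of genes (smallest adjusted p = 0.694), with 3 members higher and 1 lower at an unadjusted p under 0.05 against 3.59% and 3.42% of genes, and its median was 0.38 against -0.11. With all 12 libraries, 33 members were above and 13 below 0 in f/f mice, at a median of 0.19, and 39 and 7 in ΔIEC mice, at a median of 0.46. In mice of 9.4 weeks and over, the medians were 0.33 in f/f mice, which kept 1 Hoil1+/+ library, 0.47 in ΔIEC mice and 0.085 for the interaction. There Oas2 and Oasl2 passed in ΔIEC mice, with 2 libraries a genotype, at log2 fold changes of 2.87 ± 0.37 (SE) and 1.57 ± 0.24 (SE, edgeR, adjusted p = 0.0297 and 0.0422, 80 of 18002 genes called).

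Iigp1 was first in both the ΔIEC comparison and the interaction. It measured, in CD45+ cells, 25.6, 12.2 and 13 CPM (f/f) and 10.5, 6.14 and 6.92 CPM (ΔIEC) in Hoil1+/+ mice. Iigp1 in Hoil1-/- mice measured 22, 15 and 11.4 CPM (f/f) and 19.7, 19.2 and 26.8 CPM (ΔIEC). The ΔIEC groups did not overlap and the f/f groups did, with a log2 fold change of 1.29 ± 0.39 (SE) in ΔIEC and an interaction of 1.66 ± 0.56 (SE) (edgeR, adjusted p = 0.706 and 0.694). Ifi44 measured 9.29, 1.79 and 11.1 CPM (f/f) and 5.23, 2.7 and 4.55 CPM (ΔIEC) in Hoil1+/+ mice. Ifi44 in Hoil1-/- mice measured 32.4, 7.83 and 6.01 CPM (f/f) and 17.6, 11.9 and 14.6 CPM (ΔIEC). Its ΔIEC groups did not overlap, at a log2 fold change of 1.81 ± 0.65 (SE), and the left-out f/f library was the highest of the 12 (adjusted p = 0.775, edgeR). Oasl2 and Oas2 were higher in ΔIEC Hoil1-/- cells by 1.06 ± 0.38 (SE) and 1.73 ± 0.66 (SE) on the log2 scale, without passing.

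Ifit1 measured, in CD45+ cells, 5.47, 6.71 and 10.8 CPM (f/f) and 7.89, 8.17 and 8.35 CPM (ΔIEC) in Hoil1+/+ mice. Ifit1 in Hoil1-/- mice measured 17, 14.7 and 13.2 CPM (f/f) and 5.79, 5.4 and 5.89 CPM (ΔIEC). Every Hoil1-/- library was above every Hoil1+/+ library in f/f mice and below every one in ΔIEC mice, and the interaction was -1.41 ± 0.53 (SE) (adjusted p = 0.694, edgeR). Gbp3 measured 124, 85.2 and 134 CPM (f/f) and 74.5, 54.1 and 80.8 CPM (ΔIEC) in Hoil1+/+ mice. Gbp3 in Hoil1-/- mice measured 149, 84.5 and 63.9 CPM (f/f) and 117, 84.3 and 129 CPM (ΔIEC). The 2 tested Hoil1-/- f/f libraries were below the 3 Hoil1+/+ f/f libraries, the left-out one was above them, and every Hoil1-/- ΔIEC library was above the Hoil1+/+ ΔIEC libraries, at an interaction of 1.15 ± 0.40 (SE) (adjusted p = 0.694, edgeR). In f/f mice Parp9, Parp14 and Ifit1 had the smallest unadjusted p, at log2 fold changes of 0.41, 0.90 and 0.85.

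The effect of epithelial Il4ra deletion on CD45+ cells, averaged over the Hoil1 genotypes, passed in 0 of 46 members (edgeR, smallest adjusted p = 0.373, 0.00587% of genes called). LRT and DESeq2 called 0 members, and 201 and 341 of 17029 genes. At an unadjusted p under 0.05, 2 members were higher and 4 lower in ΔIEC mice, against 5.24% and 5.36% of all genes. The log2 fold change was above 0 for 17 members and below for 29, with a median of -0.13 against -0.0089. Oas1a, a 2-5A synthetase, measured 53.4, 27.6 and 56.3 CPM (f/f) and 26.6, 20.7 and 28.8 CPM (ΔIEC) in Hoil1+/+ mice. Oas1a in Hoil1-/- mice measured 94.7, 45.8 and 42.2 CPM (f/f) and 29.4, 33.1 and 85.1 CPM (ΔIEC). The tested ΔIEC libraries were mostly below the f/f libraries and the left-out libraries were the 2 highest, with a log2 fold change of -0.66 ± 0.21 (SE) (adjusted p = 0.373, edgeR). Irf1 measured 179, 293 and 541 CPM (f/f) and 409, 452 and 349 CPM (ΔIEC) in Hoil1+/+ mice. Irf1 in Hoil1-/- mice measured 251, 252 and 186 CPM (f/f) and 599, 582 and 199 CPM (ΔIEC). Its groups overlapped at replicate 3 of Hoil1+/+ f/f, and the log2 fold change was 0.86 ± 0.29 (SE) (adjusted p = 0.38, edgeR). Mx2, a dynamin-like GTPase, measured 1.22, 3.95 and 3.85 CPM (f/f) and 4.7, 7.57 and 6.29 CPM (ΔIEC) in Hoil1+/+ mice. Mx2 in Hoil1-/- mice measured 0, 5.02 and 1.9 CPM (f/f) and 8.91, 12.3 and 2.15 CPM (ΔIEC). The tested f/f and ΔIEC libraries overlapped narrowly and the level was low, at 1.34 ± 0.46 (SE) (adjusted p = 0.396, edgeR).

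Of the members with the highest levels per kilobase in CD45+ cells, Bst2 and Psmb8 had log2 fold changes below 0 for Il4ra without passing the test. Bst2 measured 195, 94.7 and 202 CPM (f/f) and 77.2, 57.4 and 127 CPM (ΔIEC) in Hoil1+/+ mice. Bst2 in Hoil1-/- mice measured 224, 135 and 234 CPM (f/f) and 137, 101 and 254 CPM (ΔIEC). The Bst2 log2 fold change was -0.76 ± 0.30 (SE) for Il4ra (adjusted p = 0.442, edgeR). Psmb8 measured 469, 261 and 367 CPM (f/f) and 281, 236 and 283 CPM (ΔIEC) in Hoil1+/+ mice. Psmb8 in Hoil1-/- mice measured 329, 273 and 332 CPM (f/f) and 209.7, 173 and 471 CPM (ΔIEC). The Psmb8 log2 fold change was -0.55 ± 0.20 (SE) (adjusted p = 0.407, edgeR). For both genes the groups overlapped, and the left-out ΔIEC library was the highest for each.

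The cell types in the CD45+ libraries varied along with some members. The sum of 10 macrophage and monocyte markers, each counted in every library, ranged from 4363 to 19883 CPM, with the highest value in the left-out Hoil1-/- f/f library. Across the 12 libraries, on a log2(CPM + 1) scale, 34 members were positively and 12 negatively related to that sum, and 18 positive and 4 negative relations had an adjusted permutation p under 0.05 by Pearson's r, against 6 and 0 by Spearman's rho (46 relations, Benjamini-Hochberg). Other genes were not related to this sum, so no share over all genes can be set beside these counts. Gbp3 (r = 0.89, rho = 0.90, adjusted permutation p = 0.00184) and Oas1a (r = 0.88, rho = 0.78, adjusted permutation p = 0.00184) were most closely related, and without the 2 libraries farthest from the median sum r was 0.86 and 0.84. For the members with the smallest p for Hoil1, r was 0.24 for Parp9, 0.70 for Irf7 (rho = 0.46) and -0.28 for Stat2. It was -0.60 for Parp14, 0.71 for Oasl2 (rho = 0.44) and 0.09 for Oas2. Within the 7 libraries of mice of 9.4 weeks and over, r was 0.73 for Gbp3, 0.57 for Oas1a and 0.44 for Irf7. There it was 0.37 for Parp9, 0.44 for Stat2, 0.53 for Parp14, 0.81 for Oasl2 and 0.89 for Oas2. The tested Hoil1-/- libraries lay within the Hoil1+/+ range of the macrophage sum, a range that includes the younger mice. In ΔIEC mice of 9.4 weeks and over that sum did not overlap, at 5658 and 4363 CPM in Hoil1+/+ and 8119 and 7837 CPM in Hoil1-/- libraries. In f/f mice of that age it was 8451 CPM in Hoil1+/+ and 7064 and 7504 CPM in Hoil1-/- libraries. The 9 ILC2 markers summed to 152 to 672 CPM in the tested Hoil1-/- libraries against 34.3 to 132 in Hoil1+/+ libraries. Those markers include Il5, Nmur1, Klrg1 and Il17rb, which the study itself called for Hoil1 in these cells, so this difference is not a separate finding. The left-out ΔIEC library, at 124 CPM, lay inside the Hoil1+/+ range of the ILC2 sum. The part of these cell types in the members' levels was not tested in CD45+ cells.

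**Figure D4:**
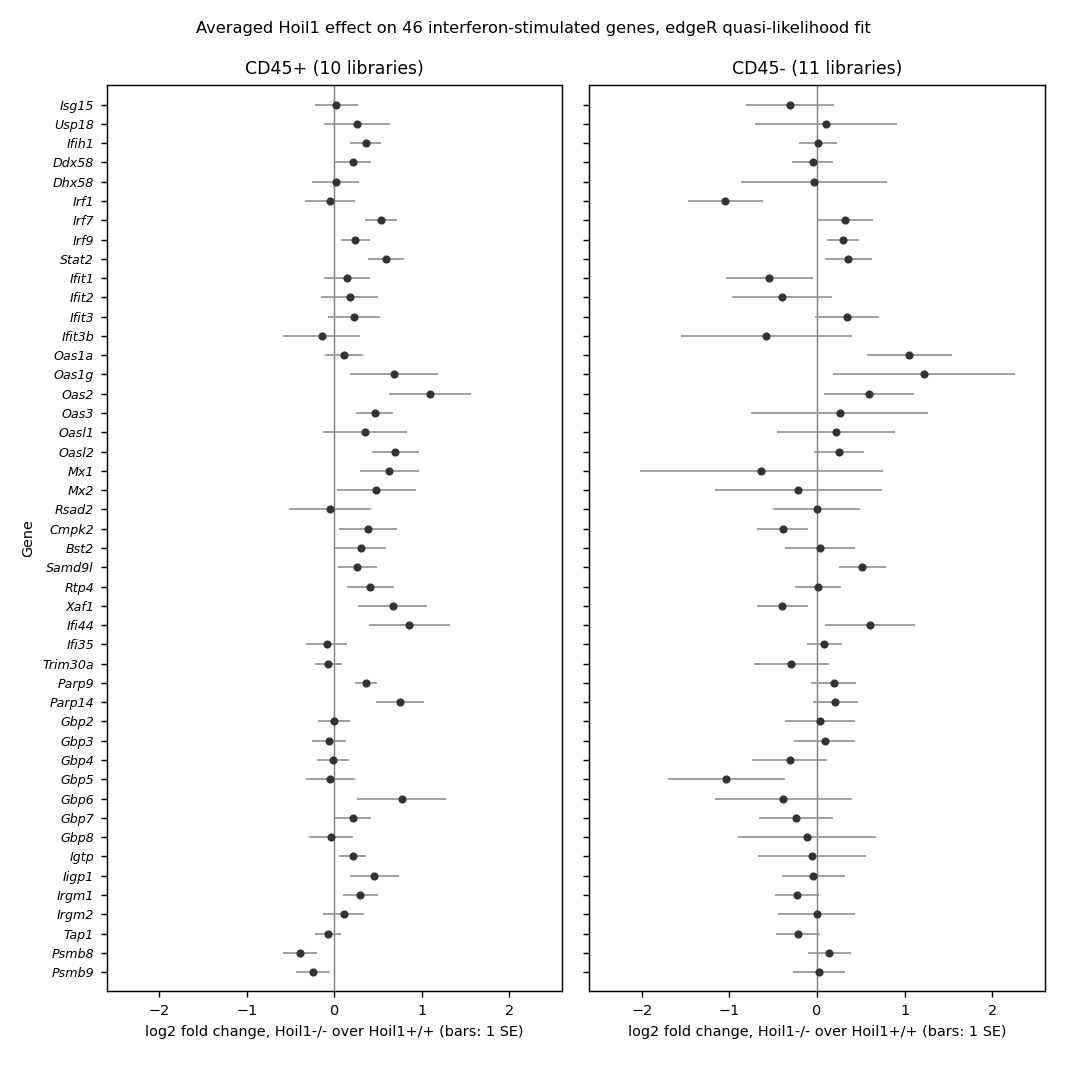
Log2 fold change between Hoil1-/- and Hoil1+/+ cells, averaged over the Il4ra genotypes, for each of the 46 members (points, ordered by role) with bars of 1 SE, from edgeR on 10 CD45+ libraries (left) and 11 CD45- libraries (right). In CD45+ cells 33 members lie above 0 and 13 below, and in CD45- cells 23 lie on each side with longer bars for many members, and 0 members passed the test in either fraction.

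In CD45- cells the averaged effect of Hoil1 also passed in 0 members (edgeR, 6 Hoil1+/+ against 5 Hoil1-/- libraries, smallest adjusted p = 0.926, 0.0182% of 16453 genes called). LRT and DESeq2 called 0 members, and 135 and 168 of 16453 genes. There were 23 members above and 23 below 0, with a median of 0.0039 against -0.079 over all genes, and 0 higher and 1 lower member at an unadjusted p under 0.05, against 1.62% and 3.66% of genes. No member had every Hoil1-/- library above or below every Hoil1+/+ library, as 0.0486% and 0.109% of genes did. Irf1 was the lower member. It measured, in CD45- cells, 556, 962 and 214 CPM (f/f) and 235, 249 and 519 CPM (ΔIEC) in Hoil1+/+ mice. Irf1 in Hoil1-/- mice measured 120.4, 129.98 and 106 CPM (f/f) and 411, 519.9 and 142 CPM (ΔIEC). In f/f mice each Hoil1-/- library was below each Hoil1+/+ library, whereas in ΔIEC mice the groups overlapped, and the averaged log2 fold change was -1.05 ± 0.43 (SE) (adjusted p = 0.926, edgeR). Beside it, 10 genes of the immediate response to cell stress and dissociation (such as Fos, Jun and Hspa1a), each counted in every library, summed to 10793, 17469.9 and 7348 CPM (f/f) and 4021, 5271 and 11946 CPM (ΔIEC) in Hoil1+/+ mice, and 1489, 2106 and 3053 CPM (f/f) and 6684, 8228 and 4695 CPM (ΔIEC) in Hoil1-/- mice. That sum was low in the same Hoil1-/- f/f libraries as Irf1, and its part in the Irf1 level was not tested.

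The other members near the top of the averaged Hoil1 comparison in CD45- cells overlapped between genotypes. Oas1a measured 8.36, 5.84 and 11.8 CPM (f/f) and 25.9, 3.05 and 6.57 CPM (ΔIEC) in Hoil1+/+ mice. Oas1a in Hoil1-/- mice measured 22.7, 36.2 and 11.7 CPM (f/f) and 12.9, 13.2 and 18.6 CPM (ΔIEC). The Oas1a log2 fold change was 1.05 ± 0.49 (SE) (adjusted p = 0.927, edgeR). Samd9l, an antiviral effector, measured 27.3, 44 and 28.1 CPM (f/f) and 24.8, 21.9 and 43.4 CPM (ΔIEC) in Hoil1+/+ mice. Samd9l in Hoil1-/- mice measured 46.9, 52.2 and 37.4 CPM (f/f) and 43.2, 56.4 and 22.5 CPM (ΔIEC). The Samd9l log2 fold change was 0.52 ± 0.27 (SE) (adjusted p = 0.93, edgeR). Replicate 1 of Hoil1+/+ ΔIEC for Oas1a, and replicates 1 and 3 of Hoil1-/- ΔIEC for Samd9l, lay inside the range of the other genotype. The left-out Hoil1-/- f/f library lay inside the Hoil1+/+ range for both genes. Irf9, the DNA-binding subunit of ISGF3, measured 33.6, 54 and 34.8 CPM (f/f) and 41.7, 43.1 and 45.7 CPM (ΔIEC) in Hoil1+/+ mice. Irf9 in Hoil1-/- mice measured 33.9, 44.9 and 53.8 CPM (f/f) and 70.8, 70.5 and 59.6 CPM (ΔIEC). It was higher in all 3 Hoil1-/- ΔIEC libraries than in the Hoil1+/+ ΔIEC libraries and overlapped in f/f mice, with averaged and ΔIEC log2 fold changes of 0.30 ± 0.18 (SE) and 0.63 ± 0.25 (SE) (adjusted p = 0.969 and 0.628, edgeR). Gbp5 measured 34.2, 84.4 and 19.8 CPM (f/f) and 17.5, 19.96 and 59.3 CPM (ΔIEC) in Hoil1+/+ mice. Gbp5 in Hoil1-/- mice measured 0.785, 15.9 and 53.7 CPM (f/f) and 66.9, 42.5 and 17.4 CPM (ΔIEC). The Gbp5 log2 fold change was -1.03 ± 0.67 (SE) (adjusted p = 0.978, edgeR), and the left-out library was far above the 2 tested ones of its group.

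Within the Il4ra genotypes, the members of CD45- cells lay on different sides of 0. In f/f mice 15 were above and 31 below 0, with a median of -0.43 against -0.17 over all genes, and in ΔIEC mice 31 were above and 15 below, with 0.39 against 0.062. No member passed in either (edgeR, smallest adjusted p 0.303 and 0.628, against 0.0365% and 0.00608% of genes called), and at an unadjusted p under 0.05 the f/f comparison had 3 higher and 5 lower members (5.26% and 7.88% of genes) and the ΔIEC comparison 5 higher and 0 lower members (2.63% and 5.03%). DESeq2 called 2 members in f/f mice, Xaf1 and Irf1, and 613 of 16453 genes. LRT called 0 members and 350 of 16453 genes there. The interaction had a median of 0.78 against 0.29 and 10 higher and 4 lower members at that p, against 11.3% and 9.44% of genes. It passed in 0 members and 0% of genes by the quasi-likelihood test (smallest adjusted p = 0.122). LRT called 3 members (Xaf1, Gbp4 and Iigp1) and 1223 of 16453 genes. DESeq2 called 5 members (those and Bst2 and Ifi35) and 1466 of 16453 genes. The quasi-likelihood test called 7 members without replicate 3 of Hoil1+/+ ΔIEC (Irf7, Oasl1, Bst2, Xaf1, Gbp3, Gbp4 and Iigp1). The share of all genes called in that fit is not given here, so the count is no result about the members. Without replicate 2 of Hoil1-/- f/f, which left 1 library in that group, the interaction was 6.21 for Gbp5 and 11.13 for Gbp6. With the left-out Hoil1-/- f/f library added, 21 members were above and 25 below 0 in f/f mice, at a median of -0.22, with 1 higher and 2 lower members at an unadjusted p under 0.05 (2.58% and 6.47% of genes), and the interaction had 4 higher and 3 lower members (7.32% and 6.7%), at a median of 0.65. With the age group as a term, the medians were -0.24 in f/f mice, 0.40 in ΔIEC mice and 0.75 for the interaction, and 0 members passed. In mice of 9.4 weeks and over they were 0.20, 0.59 and 0.38. There 5 members passed in ΔIEC mice (Bst2, Gbp3, Gbp4 and Iigp1 higher and Oasl1 lower in Hoil1-/- cells, 1276 of 16647 genes called) and 4 for the interaction (Irf1, Gbp4 and Iigp1 higher and Oasl1 lower, 521 of 16647 genes called, edgeR). The single Hoil1+/+ f/f library of that fit was assumed to vary like the others.

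By role, the GTPase families had the largest medians of the interaction in CD45- cells, without a member that passed the test. The GBPs had a median log2 fold change of -0.99 in f/f mice, 0.93 in ΔIEC mice and 2.15 for the interaction, where 6 of 7 were above 0, and the IRGs had -1.06, 0.94 and 1.92, with 4 of 4 above 0. The antigen processing genes stayed nearer to 0 (0.27 to 0.47). Within the IFIT and 2-5A synthetase families 5 genes were above and 5 below 0, from Oas3 at -5.34 ± 2.08 (SE) to Ifit3b at 2.68 ± 2.01 (SE), and both of these genes had libraries without a count.

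Xaf1, which binds the apoptosis inhibitor XIAP, had the smallest interaction p. It measured, in CD45- cells, 10.1, 19.5 and 15 CPM (f/f) and 12.4, 10.6 and 19 CPM (ΔIEC) in Hoil1+/+ mice. Xaf1 in Hoil1-/- mice measured 4.01, 6.33 and 20.3 CPM (f/f) and 28, 22.5 and 18.4 CPM (ΔIEC). The 2 tested Hoil1-/- f/f libraries were the lowest of the 12, the left-out one was above all 3 Hoil1+/+ f/f libraries, and the interaction was 2.25 ± 0.58 (SE) (adjusted p = 0.122, edgeR). Iigp1 measured 131, 153 and 91.3 CPM (f/f) and 55.9, 36 and 139 CPM (ΔIEC) in Hoil1+/+ mice. Iigp1 in Hoil1-/- mice measured 28.5, 71.8 and 69.2 CPM (f/f) and 189.6, 222 and 127 CPM (ΔIEC). The Hoil1-/- f/f libraries were below every Hoil1+/+ f/f library, the left-out one included, and the highest values were in Hoil1-/- ΔIEC libraries, with an interaction of 2.56 ± 0.74 (SE) (adjusted p = 0.137, edgeR). Gbp4 measured 54.9, 131 and 88 CPM (f/f) and 28.7, 27.5 and 119.7 CPM (ΔIEC) in Hoil1+/+ mice. Gbp4 in Hoil1-/- mice measured 15.2, 38.3 and 65.7 CPM (f/f) and 122, 165 and 96.1 CPM (ΔIEC). Only the tested Hoil1-/- f/f libraries were all below the Hoil1+/+ f/f libraries, the ΔIEC groups overlapped, and the interaction was 2.91 ± 0.88 (SE) (adjusted p = 0.144, edgeR). Ifit3 measured 12.6, 31.7 and 19.4 CPM (f/f) and 20.6, 7.37 and 24.7 CPM (ΔIEC) in Hoil1+/+ mice. Ifit3 in Hoil1-/- mice measured 8.09, 20.9 and 20.9 CPM (f/f) and 47.9, 39.6 and 34.8 CPM (ΔIEC). Its ΔIEC groups did not overlap, with a log2 fold change of 1.23 ± 0.50 (SE) in ΔIEC mice (adjusted p = 0.628, edgeR), and part of its sequence is shared with Ifit3b.

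The cell type markers of the CD45- libraries moved with the GTPase genes. The 12 endothelial markers, among them Pecam1 and Cdh5 and each counted in every CD45- library, summed to 4060.1, 15351 and 8322 CPM (f/f) and 4748, 4673 and 14231 CPM (ΔIEC) in Hoil1+/+ mice, and 2589, 5140.04 and 9498 CPM (f/f) and 15385, 18629.7 and 6783 CPM (ΔIEC) in Hoil1-/- mice. The lowest sum was in a Hoil1-/- f/f library and the highest in a Hoil1-/- ΔIEC library, and the sum varied among the libraries of every group. Other cell types moved with it. The sum of 10 fibroblast and muscle markers was lowest (769 CPM) and highest (12109 CPM) in the same libraries, and that of 10 epithelial markers ran the other way, at 17277 and 1723 CPM, so that these cell types cannot be told apart here. The Hoil1+/+ and Hoil1-/- ΔIEC libraries of mice of 9.4 weeks and over had endothelial sums of 4673 and 4748 against 15385 and 18629.7 CPM. In CD45+ libraries the same sum was 113 to 354 CPM. Across the 12 CD45- libraries, 37 members were positively and 9 negatively related to the endothelial sum, and 19 positive and 4 negative relations had an adjusted permutation p under 0.05 by Pearson's r (19 and 2 by Spearman's rho, 46 relations). These relations were taken for the members alone, so the share of all genes related to the sum is not known. The 4 IRGs and 6 of the 7 GBPs were among the positive ones. Gbp3 had r = 0.96 (rho = 0.99, adjusted permutation p = 0.000184, r = 0.94 without the 2 libraries farthest from the median sum), Gbp4 r = 0.92 (rho = 0.92, r = 0.86 without 2), Xaf1 r = 0.88 (rho = 0.92, 0.82) and Iigp1 r = 0.81 (rho = 0.80, 0.65). For Gbp4, r was 0.89 within the 6 Hoil1+/+ and 0.94 within the 6 Hoil1-/- libraries. Within the 8 libraries of mice of 9.4 weeks and over, r was 0.99 for Gbp3, 0.94 for Gbp4, 0.91 for Xaf1 and 0.80 for Iigp1, and the younger mice gave too few libraries. Oasl1 was related in the other direction (r = -0.76, rho = -0.65, adjusted permutation p = 0.0155). With the endothelial sum as a covariate, an alternative chosen after seeing the data, the median interaction was 0.26 in place of 0.78, and that of all genes 0.081 in place of 0.29. At an unadjusted p under 0.05, 3 members were higher and 2 lower in that fit, against 4.78% and 3.49% of genes, and 0 members passed.

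**Figure D5:**
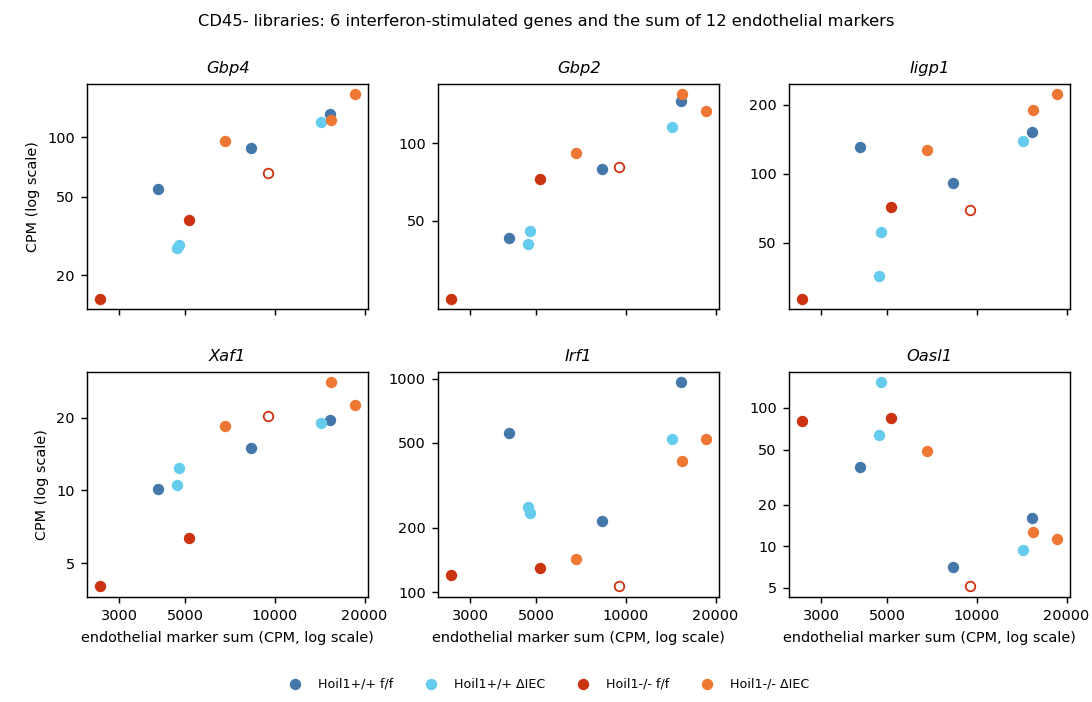
CPM of Gbp4, Gbp2, Iigp1, Xaf1, Irf1 and Oasl1 in each of the 12 CD45- libraries against the sum of 12 endothelial markers in the same library, both on log axes, coloured by genotype, with an open point for the library that the study left out. Of these genes Gbp2 and Gbp4 follow the sum most closely (r = 0.95 and 0.92), Irf1 does so less (r = 0.56), and Oasl1 runs the other way (r = -0.76).

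With Hoil1 genotypes averaged, 40 of the 46 members had higher values in CD45- cells of ΔIEC mice than of f/f mice and 6 had lower values, with a median log2 fold change of 0.58 against 0.061 over all genes, but 0 members passed the test (edgeR, smallest adjusted p = 0.636, 0% of genes called). At an unadjusted p under 0.05, 6 members were higher and 0 lower, against 3.87% and 2.03% of genes. LRT called 0 members and 143 of 16453 genes, and DESeq2 called 1 member, Xaf1, and 159 of 16453 genes. Xaf1, whose levels are given above, differed by 1.03 ± 0.29 (SE), and its f/f and ΔIEC libraries overlapped (adjusted p = 0.636, edgeR). Tap1 measured 46.2, 85.2 and 77.6 CPM (f/f) and 141, 87.7 and 72.1 CPM (ΔIEC) in Hoil1+/+ mice. Tap1 in Hoil1-/- mice measured 56.7, 51.2 and 64.7 CPM (f/f) and 111, 104 and 69.1 CPM (ΔIEC). The Tap1 log2 fold change was 0.67 ± 0.25 (SE) (adjusted p = 0.808, edgeR). Rsad2, or viperin, which makes a chain-terminating nucleotide, measured 8.36, 29.7 and 12.1 CPM (f/f) and 57.6, 26.8 and 37.8 CPM (ΔIEC) in Hoil1+/+ mice. Rsad2 in Hoil1-/- mice measured 7.07, 27.2 and 113 CPM (f/f) and 55, 53.2 and 11.3 CPM (ΔIEC). The Rsad2 log2 fold change was 1.25 ± 0.51 (SE) (adjusted p = 0.808, edgeR). Both overlapped between f/f and ΔIEC, and the highest Rsad2 level of all was in the left-out Hoil1-/- f/f library. Each of the 7 GBPs, 4 IRGs, 4 transcription factors and 3 antigen processing genes was above 0, with medians of 0.74, 0.58, 0.39 and 0.58. With the endothelial sum as a covariate the median over all members was 0.27, and 0 members passed.

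The members with the highest levels per kilobase in CD45- cells followed no single pattern over the genotypes. Bst2 measured 29.9, 104 and 69.4 CPM (f/f) and 26.2, 31.3 and 82.4 CPM (ΔIEC) in Hoil1+/+ mice. Bst2 in Hoil1-/- mice measured 15.6, 43.8 and 106 CPM (f/f) and 136, 108 and 84.4 CPM (ΔIEC). All 3 Hoil1-/- ΔIEC libraries were above the Hoil1+/+ ΔIEC libraries, and the tested f/f groups overlapped, with a ΔIEC log2 fold change of 1.25 ± 0.55 (SE) (adjusted p = 0.628, edgeR). Isg15 measured 16.6, 36.9 and 11.5 CPM (f/f) and 97, 12.1 and 21.6 CPM (ΔIEC) in Hoil1+/+ mice. Isg15 in Hoil1-/- mice measured 18.1, 15.2 and 34.4 CPM (f/f) and 31.1, 40.1 and 37.2 CPM (ΔIEC). A single library, replicate 1 of Hoil1+/+ ΔIEC, was more than 2-fold above every other one, and it was also the highest for Oasl1 and Ifit1. Oasl1, a translational regulator of Irf7, reached 153 CPM there against 9.36 CPM in replicate 3 of the same group.

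The Hoil1 effect did not pass as different between the fractions for any member (edgeR, test of the difference in 21 libraries, smallest adjusted p = 0.91, 0.0266% of 18778 genes called). Xaf1 was the 1 member with an unadjusted p under 0.05, at a difference of 1.08 ± 0.51 (SE) (adjusted p = 0.91), and 35 members had a larger and 11 a smaller log2 fold change in CD45+ cells (median difference 0.28 against 0.060 over all genes).

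The rest of the interferon pathway was followed in lists of its other genes. Of 21 interferon ligand genes, 19 had no count in any library, and Ifnz had counts in 1 CD45+ library. Ifng, the gene of interferon-gamma, was counted in 10 of 12 CD45+ and 0 of 12 CD45- libraries and measured 5.61, 12.7 and 0 CPM (f/f) and 17.8, 16.2 and 1.19 CPM (ΔIEC) in Hoil1+/+ mice, and 0, 13.1 and 2.5 CPM (f/f) and 14.3, 10.4 and 3.44 CPM (ΔIEC) in Hoil1-/- mice. Its groups overlapped, and the averaged Hoil1 log2 fold change in CD45+ cells was 0.20 ± 1.08 (SE). No gene of the 6 interferon receptor genes, 9 receptor signalling genes or 15 sensing and induction genes, and none of 72 other interferon-induced genes (68 tested in CD45+ and 67 in CD45- cells), passed the test for Hoil1, Il4ra or their interaction in either fraction (edgeR). At an unadjusted p under 0.05, 7 of the 68 other induced genes were higher and 0 lower for the averaged Hoil1 effect in CD45+ cells, against 3.11% and 2.74% of all genes. Of the 68, 49 lay above and 19 below 0, with a median of 0.18 against -0.049 over all genes, of which 45.1% lay above 0. Of the 4 LUBAC genes only Rbck1 was called, at -3.81 ± 0.32 (SE) in CD45+ cells (adjusted p = 0.0069, edgeR) and -4.23 ± 0.33 in CD45- cells (adjusted p = 0.00106). Within f/f and ΔIEC mice alone, Rbck1 passed in CD45- cells (adjusted p = 0.0188 and 0.0115) and not in CD45+ cells (adjusted p = 0.0949 and 0.115).

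Ifnlr1, the specific chain of the type III interferon receptor, measured, in CD45- cells, 9.98, 2.9 and 0.818 CPM (f/f) and 6.29, 24.5 and 7.0 CPM (ΔIEC) in Hoil1+/+ mice, and 13, 7.09 and 0 CPM (f/f) and 3.76, 0.261 and 1.64 CPM (ΔIEC) in Hoil1-/- mice. Ifnlr1 was at 0 to 5.71 CPM in CD45+ cells, a difference of -4.27 ± 1.06 on the log2 scale (adjusted p = 0.00327, edgeR). Between the fractions, 4 of 6 receptor genes, 8 of 9 receptor signalling genes, 7 of 15 sensing genes and 32 of 69 other induced genes were higher in CD45+ cells, and 1, 0, 0 and 11 were lower, where 24.5% of all genes were higher and 25.1% lower.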

How the data were processed

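RNA-seq libraries of ileal CD45+ and CD45- cells were poly-A selected with strand selection. Adapters were removed by the authors with cutadapt, STAR placed the reads on mm10, and featureCounts counted them on ENSEMBL genes. The deposited values are raw read counts per gene, not normalized by the authors. Counting options, including strand and the treatment of reads shared between genes, and versions are not given in the sources used here. The total count was 6028275 to 76807504 per library, and 38872 of 39056 gene IDs were matched to GENCODE M21 symbols (34299 with the same version).

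From the counts, edgeR 4.0.16 (R 4.3.3) fitted the 10 CD45+ and 11 CD45- libraries of the study's sample list separately, after TMM scaling, with 1 mean per genotype, a filter of 10 counts (15 in total), quasi-likelihood tests, and Benjamini-Hochberg adjustment over all genes at 0.05. Fractions were compared in 1 fit of 21 libraries. Tests were two-sided. They were also run on simulated counts with large fold changes and 1 fixed dispersion, which does not show their power for small changes. Alternatives were all libraries, RLE size factors, no filter, LRT, DESeq2 1.42.0 and leaving out each library. An endothelial marker covariate, the age group as a term and mice of 9.4 weeks and over alone were added after seeing the data. Relations with marker sums used 100000 permutations (SciPy 1.17.1, 92 relations, 46 in each fraction). Promoters and transcripts were searched in Python 3.11.15.

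All members are accounted for. Members given library by library are, per fraction, any member called for a Hoil1, Il4ra or interaction contrast (none was), those with the 5 smallest p for the averaged Hoil1 effect, the 3 smallest for Il4ra and the 3 highest levels per kb, and between fractions the 3 largest differences each way. Of the pathway lists, genes called for such a contrast and Rbck1, Ifng and Ifnlr1 are named, and 1 further gene that the rule names is not reported here. Members given for the contrasts within Il4ra genotypes or the interaction (the 3 smallest p of each), and Oas2, Oasl1 and other members named beside a count, were chosen after their values were seen. The members and lists were chosen with earlier results of these data known. Labels give ages but no batches, and each library is taken as 1 sample, so p-values measure the spread between these libraries. The floor of 3 counts covers counting error only.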

Additional observations from a re-analysis of the deposited data

Results flagged for a closer look

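The members were compared between each of the 3 libraries that the study left out of its tests and every Hoil1+/+ library of the same fraction. In replicate 1 of CD45+ Hoil1-/- f/f, 21 of the 46 members lay above all 6 Hoil1+/+ libraries and 5 lay below all of them, where 21.4% and 22.9% of 16060 genes did. Among the 21 were Isg15, Irf7, Ifit1, Ifit3, Oas1a, Oas3, Mx1 and Ifi44. In replicate 3 of CD45+ Hoil1-/- ΔIEC, 20 members lay above and 5 below, where 18.2% and 24.3% of genes did, with Dhx58, Irf7, Oas1a, Bst2, Psmb8 and Psmb9 among those above. In replicate 3 of CD45- Hoil1-/- f/f, 7 members lay above (Oas2, Rsad2, Bst2, Xaf1, Ifi44, Igtp and Irgm2) and 9 below, where larger shares of all genes, 17% and 24.4% of 15332, did. These are single libraries, so the values have no replicate check.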

How the results depend on the processing

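Most counts of members called were 0 in comparisons with almost no calls over all genes, so that a count of 0 under an alternative says nothing about stability. Of 887 log2 fold changes of named members, 863 kept their direction and their side of the threshold, 16 passed only under an alternative, 5 lost the call and 3 changed sign. In CD45- cells, DESeq2 called 2 members within f/f mice (Irf1 and Xaf1), 1 for Il4ra (Xaf1) and 5 for the interaction, and LRT called 3 for the interaction, where the quasi-likelihood test called 0. Of 16453 genes, DESeq2 called 613, 159 and 1466 in these comparisons, and LRT called 1223 for the interaction. Leaving out each library in turn gave 0 to 1 member called within f/f mice, 0 to 1 for Il4ra, 0 to 7 for the interaction and 0 to 1 for the difference of the Hoil1 effects between fractions. The single calls were of Gbp6 without replicate 2 of CD45- Hoil1-/- f/f, a fit in which that group kept 1 library, which was assumed to vary like the others. The count for the fractions was 20 to 23, and in the other comparisons it was 0 each time. The shares of all genes called in these fits are not given here, so these counts are no result about the members. The averaged Hoil1 effect on Xaf1 in CD45- cells turned from -0.39 to 0.12 with all libraries, 0.29 with all libraries and the age term, and 0.029 in mice of 9.4 weeks and over, and the cause was not tested. In those older mice 2 members were called within ΔIEC in CD45+ cells, 5 within ΔIEC in CD45- cells and 4 for the interaction in CD45- cells. The median interaction in CD45- cells was 0.26 with the endothelial covariate in place of 0.78, and that of all genes 0.081 in place of 0.29. With DESeq2 the median of all genes between the fractions was -0.078 in place of 0.027. No paired analysis was possible because the labels give no replicate number that groups share.

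The libraries differed more than 10-fold in depth, and 3 counts stood for up to 0.41 CPM.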
